A study of Mus musculus with 12 samples.

Results

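Complement is a system of proteins that tags microbes, immune complexes and dying cells for removal, and here the transcripts of 8 of its genes were followed in cultured mouse bone marrow cells. The 8 genes were given as a list of names, with no rule on their values, but with earlier results of these data known. All 8 were found among the 54532 genes of the count table. They encode the chains of the recognition molecule C1q (C1qa, C1qb and C1qc), the central component C3, factor B (Cfb) and properdin (Cfp) of the alternative pathway, and the receptors for the C3 and C5 peptides (C3ar1 and C5ar1). Of the 8, 7 had more than 0.5 CPM (reads scaled to a common library size) in at least 2 of the 12 libraries and were tested, among 14894 tested genes in all, and Cfb was not.

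The cells came from the bone marrow of wild-type C57BL/6 mice and were cultured for 5 days in a medium with the cytokines GM-CSF and IL-6, which drive myeloid cells out of progenitors. The study's methods describe its mice as adult females, and name no sorting of the cells before culture. There were 4 libraries of cultures with 0.1% DMSO as vehicle, 4 with 10 µM IPA (indole-3-propionic acid, a product of bacterial tryptophan metabolism) and 4 with 50 µM IPA. By the sample records, the agents were given again with fresh medium on day 3, while the study's methods say that the medium was changed every other day. The study describes the higher dose as lowering the viability of the cultures. The labels do not say whether the 4 libraries of a group came from separate animals or cultures, so p-values measure the spread between these libraries, which may be technical. The depth of a library, as reads assigned to genes, lay between 20451312 and 28038612, and no library was a copy of another in its group. Vehicle replicate 4 stood apart from the other vehicle libraries, with a chi-square per degree of freedom of 17.6 to 57.3 against them, where they had 9.23 to 17.3 among themselves, and it had the lowest C3 and the highest Cfp and C5ar1 of its group. Without it, 122 of all genes passed at 10 µM in place of 61, and C3ar1 passed there as well. Levels are CPM, TMM-normalized over the 12 libraries and given as mean ± SD (n = 4), and differences are log2 fold changes from edgeR's quasi-likelihood test with p-values adjusted over all 14894 genes.

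In the classical pathway, C1q binds to antibodies or directly to surfaces and dying cells, and proteases bound to it then cleave further components until C3 is activated. In the alternative pathway, C3 activates slowly on its own, factor B supplies the catalytic part of the enzyme that cleaves more C3, and properdin keeps that enzyme from falling apart. The small peptides released from C3 and C5 act on G protein-coupled receptors of myeloid cells, and macrophages are a major source of C1q, unlike most plasma complement components, which the liver makes. Since these are bulk samples, fewer cells of a type and less RNA per cell cannot be told apart in any of the differences given here.

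The C1q genes lie side by side within 18675 bases of the minus strand of chromosome 4 (GRCm38, positions 136880129 to 136898803), in the order C1qb, C1qc and C1qa. C1qb (ENSMUSG00000036905) spans 136880129 to 136886187, C1qc (ENSMUSG00000036896) spans 136889804 to 136893065, and C1qa (ENSMUSG00000036887) spans 136895917 to 136898803. C3ar1 (ENSMUSG00000040552) lies on chromosome 6 at 122847138 to 122856161, minus strand. C1qb, C1qc and C3ar1 were higher in every 10 µM library than in every vehicle library, and 300 bases around their transcription starts, mostly upstream, are shown for that reason. The sequences are those of RefSeq (GRCm38.p6), minus strand, read 5′ to 3′, at chr4:136886151-136886450 for C1qb, chr4:136892865-136893164 for C1qc and chr6:122856108-122856407 for C3ar1. Capitals mark the letters GAGGAA, the core bound by the myeloid factor PU.1, and TGCTGA, a half-site of MAF factors, on either strand.
C1qb: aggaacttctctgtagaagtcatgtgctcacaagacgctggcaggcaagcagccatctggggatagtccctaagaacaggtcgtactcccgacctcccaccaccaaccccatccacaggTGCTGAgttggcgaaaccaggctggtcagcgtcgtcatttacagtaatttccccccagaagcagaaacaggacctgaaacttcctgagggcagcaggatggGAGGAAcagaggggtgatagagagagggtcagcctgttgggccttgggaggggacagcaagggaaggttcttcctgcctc
C1qc: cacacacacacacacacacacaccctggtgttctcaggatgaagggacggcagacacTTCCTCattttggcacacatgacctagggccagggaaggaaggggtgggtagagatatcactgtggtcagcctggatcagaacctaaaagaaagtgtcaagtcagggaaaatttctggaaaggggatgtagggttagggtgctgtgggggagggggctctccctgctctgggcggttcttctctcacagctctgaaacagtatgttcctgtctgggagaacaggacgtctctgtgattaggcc
C3ar1: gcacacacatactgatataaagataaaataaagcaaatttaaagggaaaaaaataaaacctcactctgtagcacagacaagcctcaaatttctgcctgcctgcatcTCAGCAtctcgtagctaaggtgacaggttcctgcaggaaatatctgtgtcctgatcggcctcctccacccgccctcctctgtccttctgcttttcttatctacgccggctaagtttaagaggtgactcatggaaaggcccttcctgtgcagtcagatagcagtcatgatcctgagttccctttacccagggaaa

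The C1qb window holds GAGGAA at position -30 and TGCTGA at position -131 from the start, counted to the first base of each match. In the C1qc window GAGGAA is read on the opposite strand at position -193, and in that of C3ar1 TGCTGA is read on the opposite strand at position -144. Over all 32851 promoter windows of this length, 28.28% hold GAGGAA and 19.48% hold TGCTGA on at least 1 strand, so that such matches are common. The motifs TTGCNNAA (C/EBP), TTCNNNGAA (STAT) and GAAANNGAA (IRF), found in 10.8%, 8.3% and 8.56% of all windows, were not among the letters of these 3 windows. GAGGAA is thus shared by the C1qb and C1qc windows, and TGCTGA by those of C1qb and C3ar1. Of the other members, C3 has TGCTGA and TTGCNNAA, Cfp has GAGGAA at 2 places, C5ar1 has TGCTGA and GAAANNGAA, and the table held no window for C1qa and Cfb.

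At 10 µM IPA, the 3 C1q chains and C3ar1 were between 1.31 and 1.49 times as high as with vehicle, while C3, Cfp and C5ar1 had log2 fold changes of -0.16, 0.05 and 0.14. By edgeR, 1 of the 7 tested members passed the threshold of an adjusted p of 0.05, C1qb, and it was higher. Of all genes tested, 0.410% passed in either direction and 0.329% passed as higher. For 4 of the 7 members, all 4 libraries at 10 µM lay above all 4 vehicle libraries, against 3.57% of all genes tested. The median log2 fold change of the 7 was 0.39, against -0.01 for all genes tested.

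**Figure D1:**
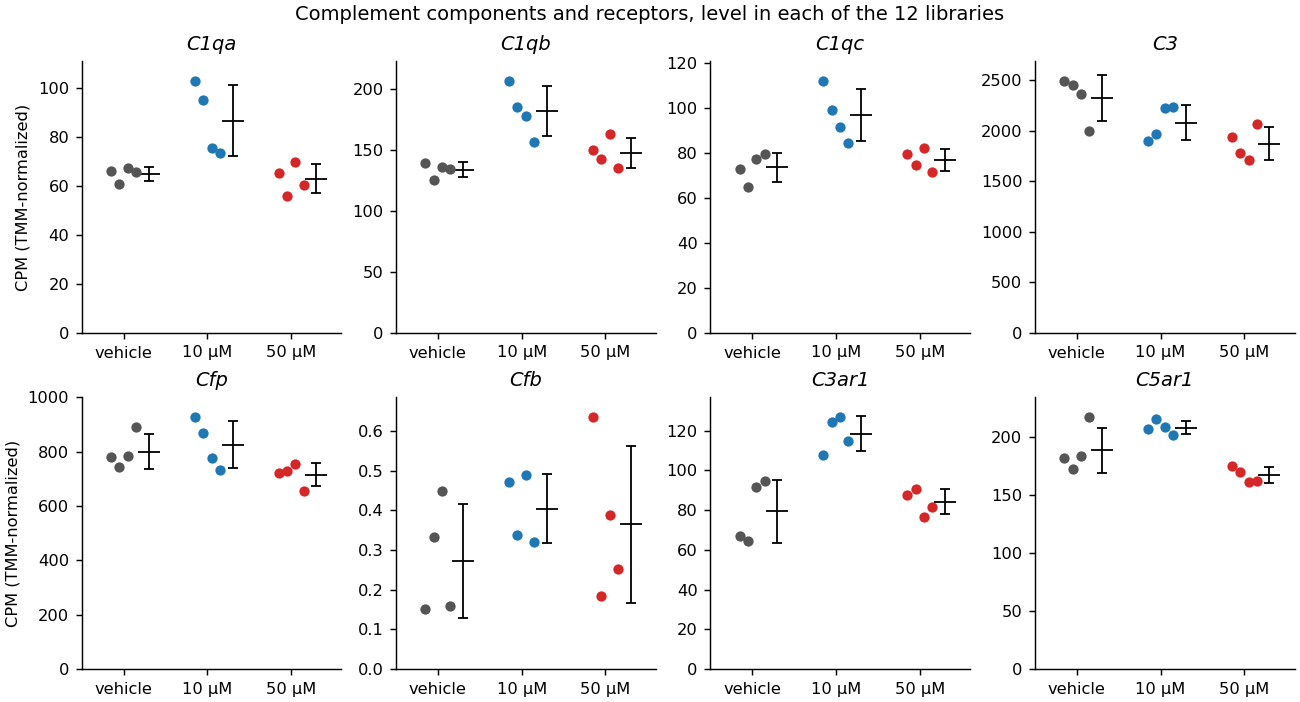
Level of each of the 8 genes in CPM (TMM-normalized, linear axes from 0, 1 panel per gene) in vehicle, 10 µM and 50 µM IPA, with points for the 4 libraries and bars for mean ± SD. The points at 10 µM lie above those of vehicle without overlap for C1qa, C1qb, C1qc and C3ar1, and Cfb stays under 1 CPM everywhere.

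C1qa, the A chain of C1q, stood at 66.2, 60.7, 67.3 and 65.6 CPM in vehicle replicates 1 to 4. At 10 µM its values were 102.7, 95.04, 75.25 and 73.55 CPM, and at 50 µM they were 65.1, 56.0, 69.8 and 60.5 CPM. The 10 µM libraries were thus all above the other 8 libraries, by a wide margin in replicates 1 and 2 and by a narrow one in replicates 3 and 4. The means were 65.0 ± 2.90 CPM with vehicle and 86.6 ± 14.5 CPM at 10 µM, a log2 difference of 0.42 (SE 0.106, 95% interval 0.18 to 0.65) that did not pass after adjustment (adjusted p = 0.162). C1qa passed in that comparison with DESeq2 (adjusted p = 0.0223) and in edgeR without the filter on low counts (adjusted p = 0.0408).

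C1qb, the B chain, stood at 139.8, 125.6, 136.4 and 134.9 CPM with vehicle. It was counted at 206.8, 186.0, 178.4 and 157.1 CPM at 10 µM, and at 150.2, 142.5, 163.8 and 135.4 CPM at 50 µM. Every library at 10 µM exceeded every vehicle library, and the 50 µM values reached into both of the other groups. C1qb rose from 134.2 ± 6.09 with vehicle to 182.1 ± 20.5 CPM at 10 µM, by a log2 fold change of 0.44 (SE 0.0819, 95% interval 0.26 to 0.62, adjusted p = 0.0473). Leaving out 1 library at a time, this call held in 2 of 8 fits, without vehicle replicate 4 (adjusted p = 0.036) and without 10 µM replicate 4 (0.0329). It was lost without vehicle replicates 1, 2 or 3 (adjusted p = 0.148, 0.13 and 0.113) and without 10 µM replicates 1, 2 or 3 (0.107, 0.209 and 0.133). The fold change stayed between 0.37 and 0.51 in the 8 fits. With equal replicate numbers taken as pairs the call was lost as well (adjusted p = 0.233).

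C1qc, the C chain, was found at 72.9, 64.8, 77.3 and 79.4 CPM with vehicle, at 111.8, 99.0, 91.6 and 84.5 CPM at 10 µM and at 79.3, 74.8, 82.0 and 71.3 CPM at 50 µM. Again the 10 µM libraries were the 4 highest of the 12, and vehicle and 50 µM overlapped. The difference between 73.6 ± 6.44 CPM with vehicle and 96.7 ± 11.6 CPM at 10 µM was 0.39 on the log2 scale (SE 0.0944, 95% interval 0.19 to 0.60, adjusted p = 0.124). As with C1qa, DESeq2 called it (adjusted p = 0.0134), and so did edgeR without the filter (0.0397) and with all 12 libraries in the fit (0.0498).

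Against vehicle, none of the 3 C1q chains passed at 50 µM. Their log2 fold changes there were -0.04 for C1qa (95% interval -0.22 to 0.14, adjusted p = 0.798), 0.15 for C1qb (-0.02 to 0.31, 0.229) and 0.07 for C1qc (-0.11 to 0.25, 0.645), so differences as large as those seen at 10 µM lie outside these intervals. Between the doses all 3 chains fell. C1qa was lower at 50 µM by 0.46 on the log2 scale (SE 0.105, adjusted p = 0.00741) and C1qc by 0.33 (SE 0.0843, adjusted p = 0.0146), each with no overlap between the doses. C1qb fell by 0.30 (SE 0.0837, adjusted p = 0.025), with the 50 µM replicate 3 at 163.8 CPM above the 10 µM replicate 4 at 157.1 CPM. The call of C1qa held in 8 of 8 fits without 1 library, that of C1qc in 7 of 8 (adjusted p = 0.0548 without 50 µM replicate 4) and that of C1qb in 4 of 8. C1qb was lost without 10 µM replicates 1 or 2 (adjusted p = 0.0683 and 0.0693) and without 50 µM replicates 2 or 4 (0.0751 and 0.0902).

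**Figure D2:**
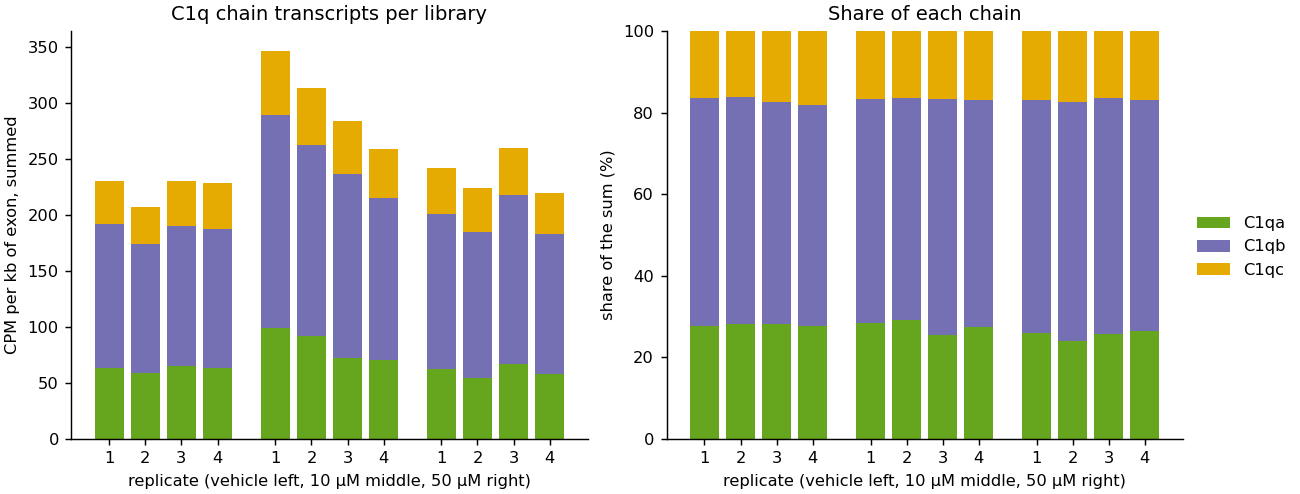
C1q chain transcripts in each of the 12 libraries, as CPM per kb of exon stacked over C1qa, C1qb and C1qc (left) and as each chain's share of that sum in percent (right), with vehicle, 10 µM and 50 µM from left to right. The sum lies between 207 and 230 with vehicle and between 259 and 347 at 10 µM, while C1qb makes up between 54.3% and 58.6% of it in every library.

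The C1q protein is built from equal numbers of the A, B and C chains, and their transcripts were not equal in amount. Per kb of exon (union of exons 1040, 1088 and 1931 bases long), the level with vehicle was 123.3 ± 5.60 CPM per kb for C1qb, 62.5 ± 2.79 for C1qa and 38.1 ± 3.33 for C1qc. In CPM, C1qc (73.6) was above C1qa (65.0) with vehicle, so the order of C1qa and C1qc depends on the exon lengths used. The sum of the chains was between 207.4 and 230.1 CPM per kb with vehicle, between 258.9 and 346.7 at 10 µM and between 219.5 and 260.1 at 50 µM. C1qb held 55.1% ± 0.799 of that sum with vehicle, 55.7% ± 1.48 at 10 µM and 57.6% ± 0.838 at 50 µM. The share of C1qa was 27.9% ± 0.278, 27.6% ± 1.60 and 25.6% ± 1.03 in the same order, and that of C1qc 17.0% ± 0.850, 16.7% ± 0.230 and 16.9% ± 0.418. At 50 µM the share of C1qa (24.1% to 26.5%) lay below its range with vehicle (27.65% to 28.15%), and the share of C1qb (56.7% to 58.6%) lay above its range with vehicle (54.3% to 55.9%). These shares were not tested.

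C3, the protein on which all activation pathways meet, is encoded on chromosome 17 at 57203970 to 57228136 (ENSMUSG00000024164). Its levels were 2491, 2455, 2362 and 1994 CPM with vehicle, 1898, 1971, 2222 and 2232 CPM at 10 µM and 1934, 1776, 1713 and 2069 CPM at 50 µM. In contrast to the C1q chains, C3 was highest in 3 vehicle libraries, and the fourth, replicate 4, lay within the range of both IPA groups.

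Against vehicle, C3 was the 1 member of 7 that passed at 50 µM, where 13.5% of all genes tested passed and 6.50% passed as lower. It fell from 2326 ± 227 to 1873 ± 160 CPM, by 0.30 on the log2 scale (SE 0.0859, 95% interval -0.49 to -0.12, adjusted p = 0.0322). The groups overlapped by 1 library on each side, vehicle replicate 4 at 1994 and 50 µM replicate 4 at 2069 CPM. Without the first of these the adjusted p was 0.00205, and without the second it was 0.034. The call was lost when another library was left out, with adjusted p = 0.0921, 0.0526 and 0.0952 without vehicle replicates 1, 2 and 3, and 0.0513, 0.0939 and 0.0848 without 50 µM replicates 1, 2 and 3. The fold change stayed between -0.37 and -0.27 in those fits. With equal replicate numbers taken as pairs the call was lost as well (adjusted p = 0.0568). At 10 µM the mean was 2081 ± 172 CPM, a difference from vehicle of -0.16 (95% interval -0.34 to 0.02, adjusted p = 0.648), and the doses differed by -0.15 (95% interval -0.30 to 0.01, adjusted p = 0.192).

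No other member differed from vehicle at 50 µM beyond the threshold, and for 0 of the 7 were the 50 µM and vehicle libraries fully apart, against 20.0% of all genes tested. The median log2 fold change of the 7 was -0.04 there, beside 0.01 for all genes tested.

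The 2 alternative pathway members had very unequal counts, and that of Cfb is uncertain, as described with its values. Properdin is made mainly by leukocytes, unlike most plasma complement components, and its gene Cfp (ENSMUSG00000001128, chromosome X, 20925454 to 20931555) had the highest level per kb of exon among the members. With vehicle Cfp stood at 461 ± 36.9 CPM per kb, next to C3 at 452 ± 44.2, ranks 82 and 87 among the 14889 tested genes with an exon length. The ranges of Cfp and C3 over the 4 libraries overlapped. C1qb (rank 391), C5ar1 (699, 73.4 ± 7.58 CPM per kb), C1qa (838), C1qc (1428) and C3ar1 (2980, 18.5 ± 3.68) followed in that order, and the ranges of these neighbours over the 4 vehicle libraries did not overlap.

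Cfp was counted at 780.6, 742.4, 784.8 and 891.4 CPM with vehicle, at 926.5, 867.5, 776.6 and 733.7 CPM at 10 µM and at 719.6, 730.2, 752.8 and 654.2 CPM at 50 µM. The 3 groups overlapped. Cfp did not pass in any comparison, with log2 fold changes of 0.05 at 10 µM (95% interval -0.14 to 0.23, adjusted p = 0.935) and -0.16 at 50 µM (-0.32 to 0.01, 0.211) against vehicle. Between the doses the difference was -0.21 (SE 0.0754, 95% interval -0.37 to -0.05, adjusted p = 0.0774), which passed without 10 µM replicate 4 (0.0282) or without the filter on low counts (0.0294).

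Cfb (ENSMUSG00000090231, chromosome 17, 34856374 to 34862518) had 4, 9, 10 and 4 counts with vehicle, 13, 7, 13 and 7 at 10 µM and 13, 5, 8 and 6 at 50 µM. These counts are between 0.151 and 0.635 CPM and overlap between all groups. In a fit without the filter on low counts the log2 fold changes had intervals from -0.76 to 1.91 at 10 µM (adjusted p = 0.806) and from -1.07 to 1.87 at 50 µM (0.8), so that a difference was not detectable at this depth. Of the 2825 exon bases of Cfb, 2246 (79.5%) are shared on the same strand with Gm20547, a gene model that also shares exon bases with C2 and had 0 counts in every library. The level of Cfb is uncertain for that reason.

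C3ar1 encodes the receptor for the peptide that is cut from C3 on activation. It was measured at 67.1, 64.5, 91.7 and 94.5 CPM with vehicle, at 108.0, 124.6, 126.8 and 115.0 CPM at 10 µM and at 87.6, 90.8, 76.7 and 81.5 CPM at 50 µM. Vehicle replicates 1 and 2 were below replicates 3 and 4 by a wide margin, the 50 µM libraries lay between them, and the 10 µM libraries were above all others. The difference at 10 µM, between 79.4 ± 15.8 and 118.6 ± 8.72 CPM, was the largest among the members at 0.58 on the log2 scale (SE 0.124, 95% interval 0.31 to 0.85), and did not pass in edgeR (adjusted p = 0.0874). It passed without vehicle replicate 4 (adjusted p = 0.0168), with DESeq2 (0.00169), without the filter on low counts (0.00508) and with all 12 libraries in the fit (0.0227). Between the doses C3ar1 fell by 0.49 on the log2 scale (SE 0.0739, 95% interval -0.65 to -0.33, adjusted p = 0.000329), with no overlap, and this call held in 8 of 8 fits without 1 library. At 50 µM the mean of 84.2 ± 6.27 CPM differed from vehicle by 0.09 (95% interval -0.18 to 0.36, adjusted p = 0.686).

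C5ar1 (ENSMUSG00000049130, chromosome 7, 16246743 to 16259540) encodes the receptor through which the C5 peptide recruits neutrophils and monocytes. Its levels were 181.7, 172.4, 183.3 and 216.9 CPM with vehicle, 207.2, 215.2, 208.2 and 201.3 CPM at 10 µM and 175.3, 170.1, 161.0 and 162.0 CPM at 50 µM. Vehicle replicate 4 was the highest library of all 12, and the other vehicle libraries overlapped those of 50 µM and lay below those of 10 µM. C5ar1 did not differ from vehicle beyond the threshold at either dose, with 0.14 at 10 µM (95% interval -0.02 to 0.30, adjusted p = 0.652) and -0.17 at 50 µM (-0.34 to 0.01, 0.2). From 10 to 50 µM it fell from 208.0 ± 5.69 to 167.1 ± 6.83 CPM, by 0.31 on the log2 scale (SE 0.0583, adjusted p = 0.00185), with no overlap between the doses and in 8 of 8 fits without 1 library.

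Between the doses, all 7 tested members had a lower mean at 50 than at 10 µM, and 5 of the 7 passed, C1qa, C1qb, C1qc, C3ar1 and C5ar1. Of all genes tested, 15.4% passed in that comparison and 7.85% passed as lower. For 4 of the 7 (C1qa, C1qc, C3ar1 and C5ar1) every 50 µM library was below every 10 µM library, against 10.9% of all genes tested. The median log2 fold change of the 7 was -0.31, beside 0.01 for all genes tested. This comparison shares its 10 µM libraries with that of 10 µM against vehicle, and that of 50 µM against vehicle shares a group with each, so the 3 sets of values are not independent.

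**Figure D3:**
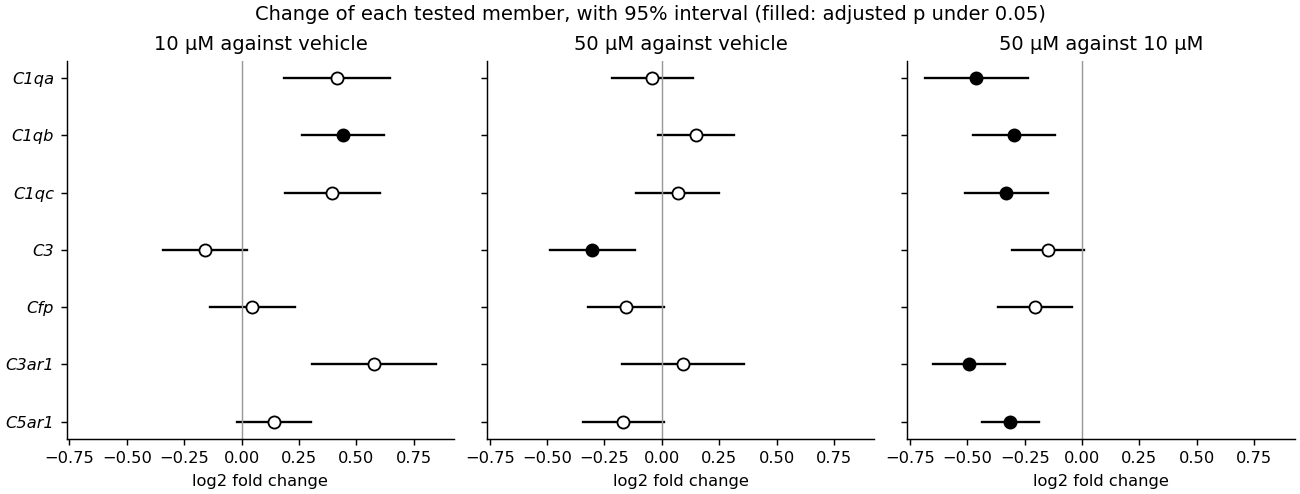
Log2 fold change of the 7 tested members (points) with 95% intervals (lines) in the 3 comparisons, filled where the adjusted p was under 0.05. C1qb is filled at 10 µM against vehicle, C3 at 50 µM against vehicle, and C1qa, C1qb, C1qc, C3ar1 and C5ar1, all negative, at 50 µM against 10 µM.

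A wider list of 46 other complement genes was read in the same fits, and 23 of them were tested. Of the 23 others, 6 had 0 counts in all libraries (Mbl1, Colec10, C6, Cfi, Serping1 and C4bp), where a count of 0 allows up to 3 counts, or between 0.107 and 0.147 CPM depending on the library, and the highest count among the untested was 21, for Cd59b. These limits cover counting error only.

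At 10 µM, edgeR called 0 of the 23 against vehicle, and 6 had an unadjusted p under 0.05, as had 1308 of all 14894 genes. There limma-voom called 0 of the 23, and DESeq2 called 1, C1ra, and 250 of all genes. C1ra encodes a protease that C1q carries, and it rose at 50 µM, from 11.5 ± 0.897 to 16.3 ± 0.736 CPM (log2 fold change 0.50, SE 0.0982, adjusted p = 0.0045). Its mean at 10 µM was also 16.3 CPM (0.50, SE 0.114, adjusted p = 0.107). C1s1, the protease that C1r activates, stood at 2.72 ± 0.315 CPM with vehicle, 4.24 ± 0.798 at 10 µM and 1.96 ± 0.464 at 50 µM, and it fell between the doses by 1.11 on the log2 scale (SE 0.228, adjusted p = 0.00366). Of its exon bases, 18.41% lie opposite an antisense gene, Gm16567, that had 0 counts. Both calls held in 8 of 8 fits without 1 library.

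In the lectin pathway, where ficolins and collectins take the place of C1q, the largest change of the list was in Fcnb, a ficolin of myeloid cells. Fcnb was found at 49.8, 62.9, 78.1 and 83.3 CPM with vehicle and at 73.9, 66.04, 78.8 and 72.7 CPM at 10 µM. At 50 µM it was at 24.7, 16.6, 20.3 and 22.01 CPM, below every other library. It fell by 1.71 on the log2 scale against vehicle (SE 0.158, adjusted p = 1.81e-05) and fell by 1.80 against 10 µM (SE 0.104, adjusted p = 2.41e-08), and both calls held without any 1 library. Colec12, a scavenger receptor with a collectin domain, was low, at 2.87 ± 0.457 CPM at 10 µM and 1.34 ± 0.663 at 50 µM, and fell between the doses by 1.11 (SE 0.332, adjusted p = 0.0331). The call of Colec12 held in 4 of 8 fits and was lost without 10 µM replicates 2 or 3 (adjusted p = 0.0757 and 0.0901) or 50 µM replicates 2 or 3 (0.0728 and 0.0769).

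Among 9 tested receptors outside the members, Itgam and Itgb2, the chains of complement receptor 3, rose at 50 µM against vehicle. Itgam went from 451.8 ± 20.5 to 555.3 ± 25.5 CPM (0.31, SE 0.0671, adjusted p = 0.00893) and Itgb2 from 1383 ± 35.2 to 1632 ± 52.4 CPM (0.25, SE 0.0628, adjusted p = 0.0197). The call of Itgb2 was lost without vehicle replicate 3 (adjusted p = 0.0669) and without 50 µM replicates 2 or 4 (0.0563 and 0.0701). Of the exon bases of Itgam, 68.67% are shared on the same strand with Gm49368, which had between 2 and 26 counts, so its level is uncertain. C5ar2, the second receptor for the C5 peptide, fell at 50 µM from 21.8 ± 1.98 with vehicle to 15.7 ± 0.459 CPM (log2 fold change -0.47, SE 0.0926, adjusted p = 0.00493). Its mean at 10 µM was 21.9 ± 2.56 CPM, and it fell by 0.48 between the doses (adjusted p = 0.00399). Calr and Lrp1, calreticulin and the large scavenger receptor through which C1q-coated cells can be taken up, were lower at 50 than at 10 µM. Calr fell by 0.23 (1956 to 1660 CPM, adjusted p = 0.0193) and Lrp1 by 0.71 (497.1 to 302.3 CPM, adjusted p = 0.00036), and the call of Calr was lost without 10 µM replicate 2 (0.0804) or 50 µM replicate 4 (0.0777).

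Of the 6 tested regulators 1 passed in edgeR, clusterin (Clu), a fluid-phase inhibitor of the terminal complex, which fell at 50 µM from 33.8 ± 2.78 to 24.5 ± 4.86 CPM (log2 fold change -0.45, SE 0.128, adjusted p = 0.0322). It also fell by 0.40 between the doses (adjusted p = 0.0419). The first call of Clu was lost without vehicle replicates 1 or 3 (adjusted p = 0.0727 and 0.0642) or 50 µM replicates 2 or 3 (0.0892 and 0.0611). The second was lost without 10 µM replicates 1, 2 or 3 (0.106, 0.0804 and 0.0568) or 50 µM replicates 2 or 3 (0.109 and 0.098). Cd59a, an inhibitor of the terminal complex on cell surfaces that is named here after its values were seen, stood at 0.965 ± 0.161 CPM with vehicle and 2.00 ± 0.828 CPM at 50 µM, with no overlap (log2 fold change 1.06, SE 0.334, adjusted p = 0.0522). In all, 3 of the 23 rose and 3 fell at 50 µM against vehicle, beside 7.00% and 6.50% of all genes tested. Between the doses 0 of the 23 rose and 7 fell, beside 7.52% and 7.85% of all genes tested. At 50 µM against vehicle the count was 8 with DESeq2, without the filter and with all 12 libraries in the fit, where Cd59a (higher) and Calr (lower) passed as well. DESeq2 also called Itgam and Itgb2 between the doses, both higher at 50 µM, and 10 of the 23 had an unadjusted p under 0.05 there in edgeR, as had 4393 of all 14894 genes. The medians of the 23 log2 fold changes were 0.10, 0.17 and -0.01 in the 3 comparisons, against -0.01, 0.01 and 0.01 for all genes tested.

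**Figure D4:**
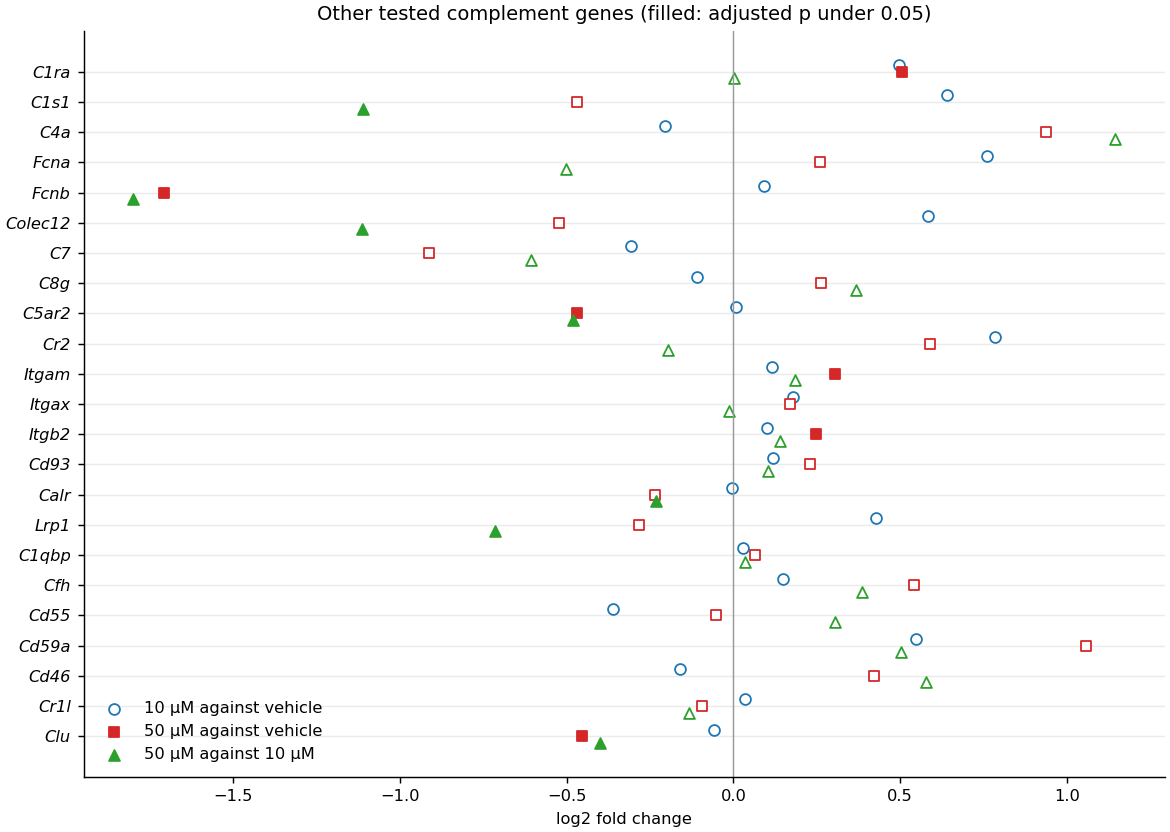
Log2 fold change of the 23 other tested complement genes (rows) at 10 µM against vehicle (circles), 50 µM against vehicle (squares) and 50 µM against 10 µM (triangles), filled where the adjusted p was under 0.05. Fcnb has the lowest values, -1.71 and -1.80 in the comparisons with 50 µM, and no circle is filled.

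Markers of the cell types these cultures could hold also differed between the groups, and their part in the results above was not tested. All 20 macrophage markers on the list were tested, 0 were at 0, and their summed level was between 7860 and 8963 CPM with vehicle, between 10060 and 11680 at 10 µM and between 11210 and 12080 at 50 µM. Against vehicle, 4 of the 20 rose and 0 fell at 10 µM, where 0.329% of all genes tested rose. At 50 µM, 6 rose and 4 fell, beside 7.00% and 6.50% of all genes tested. The sum is led by Lpl, Lgals3, Ctsb and Gpnmb, which hold 66.2% of it. At 50 µM Lpl rose from 1524 to 2902 CPM and Gpnmb from 787.9 to 1708 CPM, while the 4 that fell were Csf1r, Mrc1, Apoe and Fcgr1. The summed C1q chains per 1000 CPM of macrophage markers came to 31.7 ± 0.424 with vehicle, 33.3 ± 2.09 at 10 µM and 24.4 ± 1.26 at 50 µM. The ratio overlapped between vehicle and 10 µM, while its highest value at 50 µM, 26.2, was below the lowest with vehicle, 31.2. How the sum was made changed these values, and both choices below were made after the values were seen. Without the 4 genes that each held over 10% of the sum over all 12 libraries, the other 16 summed to between 2994 and 3437 CPM with vehicle, 3638 and 4064 at 10 µM and 3321 and 3606 at 50 µM, and the C1q ratio was 83.8 ± 1.77, 94.2 ± 7.17 and 83.2 ± 5.38. That choice uses the 50 µM levels, since Gpnmb passes that limit only through the IPA libraries. Vehicle and 50 µM overlapped in this ratio, and no conclusion is drawn from either choice. The genes over 10% in the vehicle libraries alone are Lpl, Lgals3, Ctsb and Csf1r. Without these, the sum was between 2768 and 3241 CPM with vehicle, 3751 and 4385 at 10 µM and 4256 and 4599 at 50 µM. The C1q ratio to it was 88.0 ± 1.91 with vehicle, 89.5 ± 5.05 at 10 µM and 64.95 ± 4.41 at 50 µM. All 50 µM values of that ratio (up to 71.4) lay below those with vehicle (from 86.4). This sum keeps Gpnmb, which rose from 787.9 to 1708 CPM at 50 µM. It leaves out Lpl and Lgals3, which rose at 50 µM, and Csf1r, which fell. For C3ar1 the ratio to all 20 markers was 9.19 ± 1.42, 10.9 ± 1.23 and 7.16 ± 0.573, and to the sum without the vehicle leaders it was 25.5 ± 3.94, 29.3 ± 3.59 and 19.0 ± 1.28. To the sum without the leaders over all 12 libraries it was 24.3 ± 3.99, 30.7 ± 2.97 and 24.3 ± 1.73. For C5ar1 the ratio was 21.9 ± 1.65, 19.1 ± 1.11 and 14.2 ± 0.558 to the 20, and 60.8 ± 4.82, 51.3 ± 3.39 and 37.7 ± 0.887 without the vehicle leaders. Without the leaders over all 12 libraries it was 57.9 ± 3.69, 53.8 ± 2.02 and 48.3 ± 1.28.

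The 6 monocyte markers had their highest sum at 10 µM, and Fn1 made up 55.3% of the sum over all libraries. Ly6c2, another of the 6, stood at 580.8, 534.6 and 445.4 CPM with vehicle, 10 µM and 50 µM. The sum lay between 2688 and 3426 CPM with vehicle, between 3839 and 4927 at 10 µM and between 2419 and 3122 at 50 µM. At 10 µM 1 of the 6 rose, at 50 µM against vehicle 3 fell, and between the doses 5 fell, where 7.85% of all genes tested fell. Per 1000 CPM of them, C3ar1 stood at 25.6 ± 1.91 with vehicle, 26.8 ± 1.95 at 10 µM and 30.3 ± 2.09 at 50 µM, and the C1q chains at 89.2 ± 8.65, 83.7 ± 19.5 and 104.3 ± 17.5. Without the 4 leading monocyte markers, which held 91.1% of the sum, 2 markers were left. Per 1000 CPM of these, C3ar1 stood at 261.6 ± 32.2, 304 ± 49.1 and 410 ± 82.4 and the C1q chains at 934.5 ± 268, 955 ± 281 and 1386 ± 131, and for both all 50 µM values were above those with vehicle. The 17 neutrophil markers summed to between 26120 and 35880 CPM with vehicle, between 24380 and 27630 at 10 µM and between 19260 and 25510 at 50 µM. S100a9, Ngp, S100a8 and Ltf held 27.3%, 17.5%, 15.3% and 12.4% of the sum over all libraries. At 50 µM against vehicle 10 of the 17 fell and 1, Mmp9, rose, beside 6.50% and 7.00% of all genes tested. Per 1000 CPM of neutrophil markers, C3 stood at 79.0 ± 18.2, 79.0 ± 5.08 and 83.9 ± 11.4 in the order vehicle, 10 µM and 50 µM, Cfp at 26.7 ± 2.53, 31.5 ± 4.44 and 32.0 ± 4.56, and C5ar1 at 6.28 ± 0.527, 7.92 ± 0.648 and 7.51 ± 1.15. These ratios overlapped between the groups for C3 and Cfp, and for C5ar1 all 10 µM values were above those with vehicle. C3 and Cfp were set against neutrophil markers only, with all 17 in the sum.

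**Figure D5:**
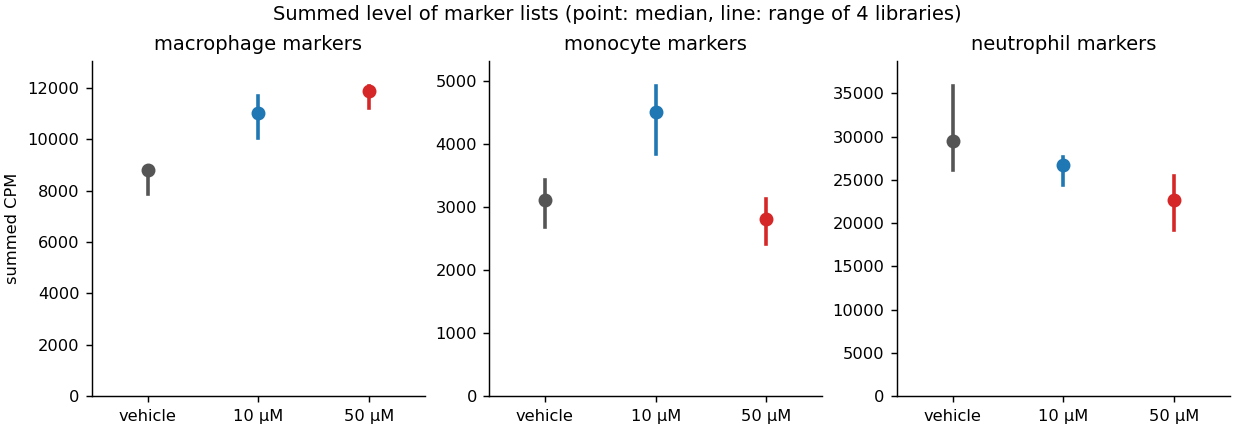
Summed CPM of 20 macrophage, 6 monocyte and 17 neutrophil markers (linear axes from 0) with vehicle, 10 µM and 50 µM IPA, as the median (point) and range (line) of 4 libraries. The sum of all 20 macrophage markers is higher at both doses, the monocyte sum is highest at 10 µM (3839 to 4927), and the neutrophil sum is lowest at 50 µM (19260 to 25510).

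The 9 dendritic cell markers summed to between 150.4 and 173.1 CPM with vehicle, 159.2 and 177.9 at 10 µM and 180.0 and 224.1 at 50 µM, and the 6 B cell markers to between 51.9 and 68.3, 65.9 and 84.8, and 86.1 and 125.1. The 5 eosinophil markers lay between 1008 and 1251, 848.6 and 1078, and 796 and 1072 CPM, and the 6 mast cell and basophil markers between 280.5 and 355.2, 224.6 and 318.8, and 266.4 and 379.1 CPM. The 8 T and NK cell markers summed to between 8.32 and 19.5 CPM in every library. The 6 erythroid and megakaryocyte markers, nearly all of it Pf4 and Itga2b, lay between 171.2 and 195.9, 184.5 and 231.3, and 201.9 and 227.6 CPM. The 9 stromal and endothelial markers, 83.9% of them Pecam1, lay between 47.8 and 63.0, 64.9 and 76.9, and 47.1 and 56.9 CPM. None of these lists had a marker at 0 in all libraries. At 50 µM against vehicle, 6 of the 6 B cell markers and 4 of the 9 dendritic cell markers rose, beside 7.00% of all genes tested.

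The genes outside the 8 members that were most like each member over the 12 libraries were found by the root mean square difference of centred log2 CPM among 12600 genes whose mean was 1 CPM or more. C1qb and C1qc, as members left out of that search, were nearer to each other than either was to any gene found. For C1qb the genes found were Trem2, a lipid receptor of macrophages (0.0891), and Pdp1 (0.0901), and Trem2 was at 63.0, 83.8 and 68.2 CPM with vehicle, 10 µM and 50 µM. For C1qc they were Lgals3bp (0.0695) and Psap, the precursor of lysosomal saposins (0.0771), and for C1qa they were Cav2 (0.092) and Prdx4 (0.0969). Between the chains the difference was 0.0606 for C1qb and C1qc, 0.0947 for C1qa and C1qc and 0.111 for C1qa and C1qb, all below the SD of each chain over the libraries (0.216 to 0.258). C3ar1 was nearest to Sdc3, a heparan sulfate proteoglycan (0.089), and Hmox1, the haem-degrading enzyme (0.103), and Hmox1 stood at 186, 278 and 185 CPM. C3 was nearest to Pag1 (0.0439) and Ncapd3 (0.0512), Cfp to Twf2 (0.043) and Eef1d (0.0506), and C5ar1 to Soat1 (0.0471) and Dnajc10 (0.0497). Among the members, Cfp and C5ar1 were closer to each other (0.0972) than either was to C3 (0.23 and 0.214). The points share 12 libraries and their depths, and no test was made.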

How the data were processed

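The deposited table holds raw read counts per Ensembl gene for 12 libraries made with a stranded mRNA kit. After trimming with Atropos, the authors used HISAT2 2.2.1 for alignment (mm10) and featureCounts 2.0.1 for counting. The strand setting of the counting is not given in the sources used here, so overlapping and antisense genes are uncertain. Groups came from the labels, and replicate numbers from the library names, because the title of replicate 3 at 10 µM repeats that of replicate 2.

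Genes over 0.5 CPM of the library totals in at least 2 of 12 libraries were tested with edgeR 4.0.16 (R 4.3.3, TMM, glmQLFit, glmQLFTest), each comparison on its 8 libraries, with Benjamini-Hochberg adjustment over 14894 genes and a threshold of 0.05. SE is the log2 fold change divided by the square root of F. The steps were tested on simulated data. The deposited counts were used unchanged. Exon lengths and positions are from GENCODE M21 (GRCm38). Alternatives were DESeq2 1.42.0, limma-voom (limma 3.58.1), DESeq2's size factors, no filter on low counts, a minimum of 10 counts in each library, all 12 libraries in the fit, a replicate block and leaving out each library.

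The members, the complement and marker lists, the tests and the named genes were chosen with earlier results of these data known. The rule for named genes took the 8 members, the other listed complement genes that passed in at least 1 comparison, and the 2 tested genes outside the members most like each member (prior count 2). Cd59a, the markers and the untested complement genes named besides were chosen outside this rule, after their values were seen.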

Additional observations from a re-analysis of the deposited data

How the results depend on the processing

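Of the alternative values for the 7 tested members, 282 kept their direction and side of the threshold, 19 no longer passed, 11 passed newly and 3 changed sign, all 3 of them small differences that did not pass. These were Cfp at 10 µM without 10 µM replicate 1 (-0.013, with up to 0.103 in the other fits without 1 library), C1qa at 50 µM against vehicle without 50 µM replicate 2 (0.003, down to -0.1 in the others) and C3ar1 at 50 µM against vehicle without vehicle replicate 2 (-0.004, up to 0.187 in the others).

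At 10 µM against vehicle, the count of members called was 1, and it became 4 with DESeq2 (C1qa, C1qb, C1qc and C3ar1), 4 with no filter and 3 with all 12 libraries in the fit. It lay between 0 and 2 when 1 library was left out. The 0 other complement genes called became 1 with DESeq2 and 1 with all 12 libraries. Over all genes the 61 calls became 250 with DESeq2, 150 with no filter and 118 with all 12 libraries, and lay between 4 (without 10 µM replicate 2) and 122 (without vehicle replicate 4) when 1 library was left out. At 50 µM against vehicle the 1 member called was 0 or 1 when 1 library was left out, and the 2010 calls over all genes lay between 1248 and 2689. Between the doses, leaving out 1 library gave between 3 (without 50 µM replicate 4) and 6 in place of the 5 members called, and between 4 (without 10 µM replicate 2) and 8 in place of the 7 other complement genes called, which were 9 with DESeq2.

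With the replicate block, the members called became 0 at 10 µM (C1qb, adjusted p = 0.233) and 0 at 50 µM against vehicle (C3, 0.0568), and all genes called at 10 µM became 3. Whether equal numbers share a bone marrow source is not given in the sources used here. For flow cytometry of cultures at these doses, the study used a repeated-measures test. The numbers were not taken as pairs in the main fits. Deviations of same-numbered libraries from their group means correlated between -0.242 and 0.142 over genes. For libraries with unequal numbers they correlated between -0.255 and 0.272, so these values cannot exclude pairing.

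The cause of these changes was not tested. Cfb had 4 to 13 counts a library, and its level is uncertain because it shares exon bases with Gm20547.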

Other observations

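Within each group, the library with the most Cfp was not the one with the most C3. With vehicle, replicate 4 had the highest Cfp (891.4 CPM) and the lowest C3 (1994 CPM), while replicate 2 had the lowest Cfp (742.4 CPM) and replicate 1 the highest C3 (2491 CPM). At 10 µM, replicate 1 had the highest Cfp (926.5 CPM) and the lowest C3 (1898 CPM), and replicate 4 had the lowest Cfp (733.7 CPM) and the highest C3 (2232 CPM). At 50 µM, replicate 4 had the lowest Cfp (654.2 CPM) and the highest C3 (2069 CPM), and replicate 3 had the highest Cfp (752.8 CPM) and the lowest C3 (1713 CPM). These orders were noticed after the values were seen, rest on 4 libraries a group and were not tested.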
